A study of Mus musculus with 49 samples.

Results

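The genes described here are 10 of those that extracellular signal-regulated kinase (ERK) signaling is known to induce, and most of them encode proteins that act back on it: Dusp4, Dusp5, Dusp6, Spry1, Spry2, Spry4, Spred1, Etv4, Etv5 and Ier3. They were chosen by name, as the rows of the deposited UMI count table whose Ensembl identifiers map to those symbols, and they are 10 of 46078 identifiers. All 10 were found, and each is followed through 49 bulk CEL-seq2 libraries of 16 conditions. Hepatocytes came from the livers of 10-week-old wild-type C57BL/6J mice, which the study's methods give as male. Fresh hepatocytes (FH) are compared with hepatocytes kept as a monolayer with epidermal growth factor (EGF) at 20 ng/mL for 3 h or for 1, 2, 4, 7 or 14 days (Hep 3 h to Hep 14 d, 3 libraries each). A 7-day monolayer with verteporfin at 0.3 µM, an inhibitor of YAP-TEAD interaction, had a DMSO vehicle control (2 libraries each). DediHeps (5 libraries) are dedifferentiated, expandable hepatocytes maintained in the same monolayer culture. They were moved to aggregates in ultra-low-attachment wells (dediHep aggregate, 3 libraries) or to Matrigel as spherical organoids (dediHep-SO, 3 libraries). The study's account names another medium for aggregates, and media with EGF, Noggin and R-spondin for organoids. Budding organoids from dediHeps given Cdx2, an intestinal transcription factor gene, are called dediHep-BO (3 libraries). CLiPs (3 libraries) are progenitor-like cells that hepatocytes form in serum-free culture with small molecules. Spherical organoids of wild-type fetal intestinal progenitors at E13.5 (FIPC-SO, 3 libraries) were the fetal intestinal reference. Budding organoids of adult crypts from 10-week-old wild-type mice (ISC-BO, 4 libraries) were the adult reference. The labels do not say which libraries came from separate animals, so p-values measure the spread between these libraries, which may be technical in part.

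ERK is the last kinase of the Ras, Raf and MEK cascade that growth factor receptors such as the EGF receptor switch on. Its activity is limited by proteins whose own genes it induces. Dual-specificity phosphatases remove the phosphates that activate ERK, Sprouty and Spred proteins act upstream on Ras and Raf, and for that reason the transcripts of these genes are widely read as a record of recent pathway output. Etv4 and Etv5 encode ETS transcription factors that are induced by growth factor signaling, and Ier3 encodes a small, short-lived immediate-early protein that ERK phosphorylates. In the liver the pathway is known for its part in the response of hepatocytes to partial hepatectomy and to plating. The RNA values do not measure ERK activity or phosphorylation.

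Levels are counts per 1000000 UMIs (CPM) scaled with TMM factors over all 49 libraries. A difference was called when the edgeR quasi-likelihood FDR was under 0.1 and the log2 fold change was above 2 in size. Library totals ran from 861047 to 3872940 UMIs, so that 3 counts, taken as the floor of detection, were worth 0.775 to 3.48 CPM, and floors and intervals cover counting error only. The highest count of any gene was 4096, and every library had its highest count between 3835 and that value. This may be a ceiling set by the number of distinct UMIs, which is not given in the sources used here, and counts near it would then be too low. The highest count of one of the 10 genes was 2185, for Ier3 in dediHep-SO replicate 1, and would be 3123 if restored for such a ceiling. The labelled cell types were checked on marker lists. Summed levels of 6 hepatocyte markers were 13628 to 17179 CPM in FH and 823 to 4067 CPM in dediHep, and Cyp2e1 was without a count in Hep 7 d, Hep 14 d, dediHep aggregate, dediHep-SO and CLiP. All 8 intestinal markers were detected in dediHep-BO, FIPC-SO and ISC-BO, with sums of 1917 to 2308, 1111 to 1382 and 2316 to 2900 CPM. All but Olfm4 were also detected in dediHep (54.7 to 688 CPM), and all but Fabp2 in dediHep-SO (613 to 733 CPM). FH also held non-parenchymal transcripts: 5 of 5 endothelial markers were detected, with sums of 169 to 303 CPM, against 42.8 to 98.6 CPM in Hep 3 h and 0 to 0.508 CPM in dediHep, where Kdr, Stab2, Clec4g and Cdh5 were at 0. Stellate cell and fibroblast markers summed to 58.8 to 169 CPM in FH, 0.505 to 20.2 CPM in Hep 1 d and 34.3 to 197 CPM in Hep 14 d. Macrophage markers summed to 56.8 to 203 CPM in FH and 2.29 to 62.5 CPM in Hep 14 d. In bulk RNA, fewer cells of a type and less RNA per cell cannot be told apart, and the part of these cells in the values of FH and of the cultures was not tested.

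**Figure D1:**
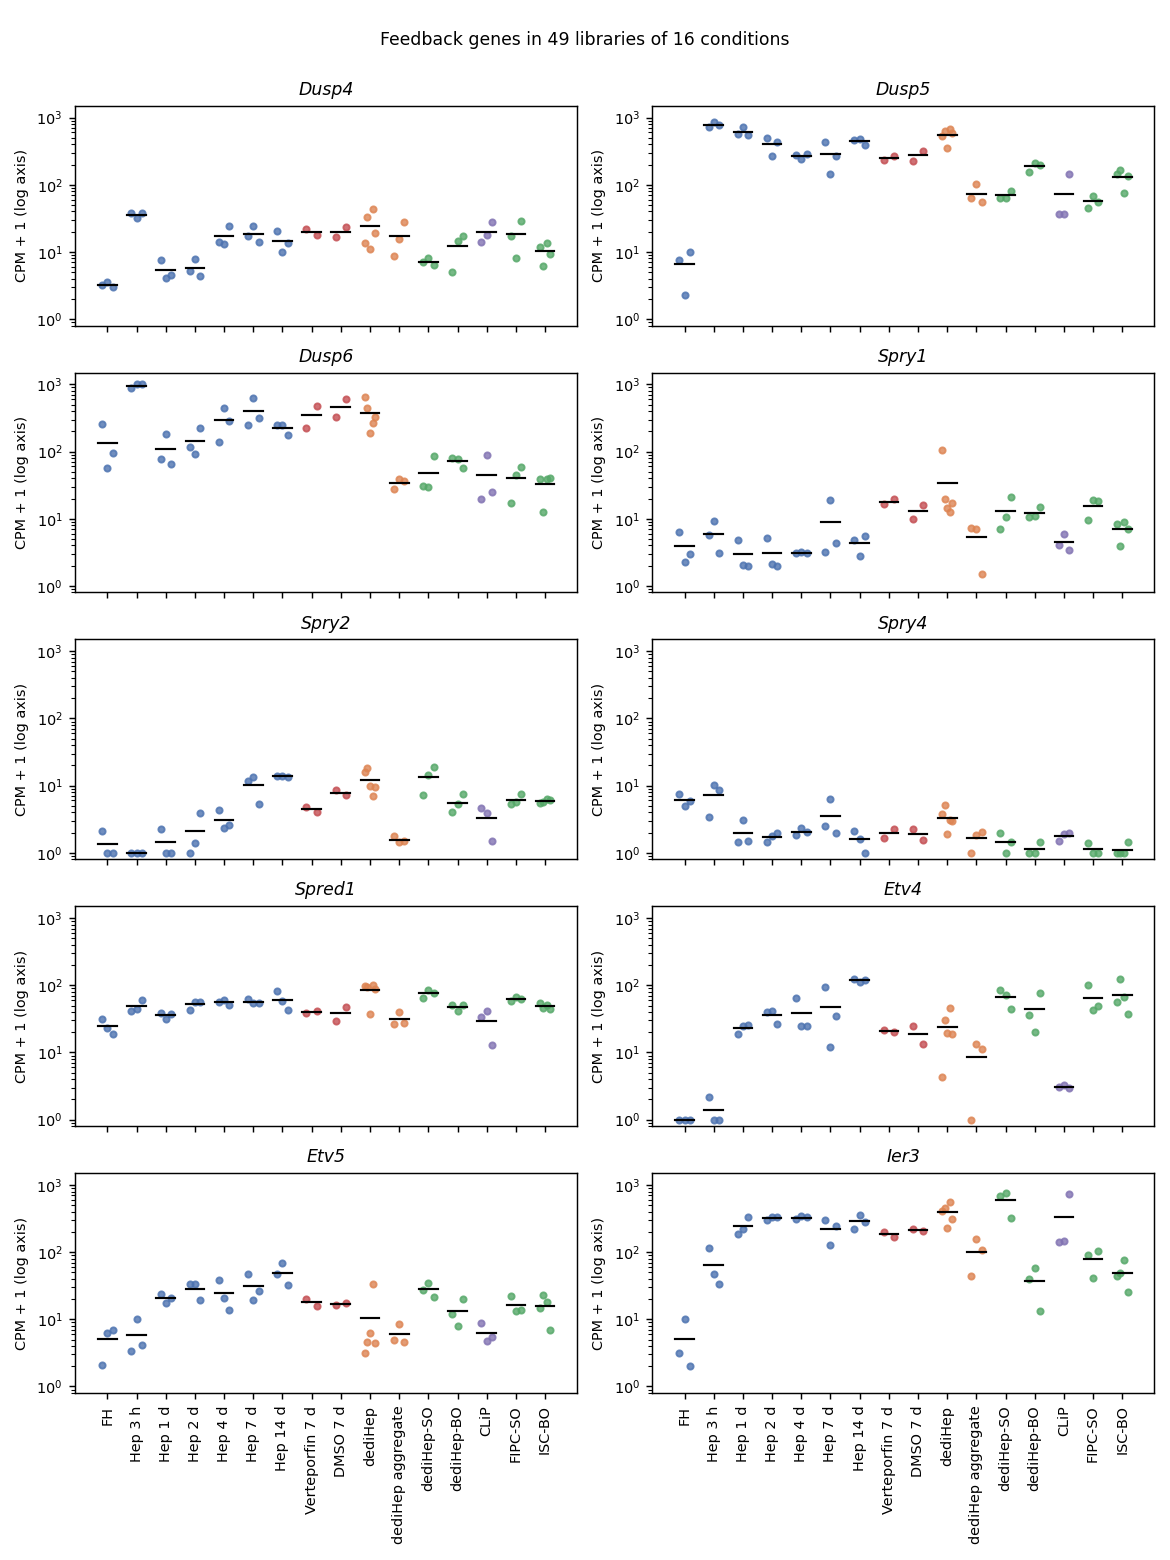
CPM plus 1 on a log axis for each of the 10 genes in the 49 libraries (points) of the 16 conditions, with black bars at the condition means and colors for fresh and cultured hepatocytes (blue), verteporfin and DMSO (red), dediHep and aggregates (orange), organoids (green) and CLiP (purple). Dusp5 had a mean of 5.60 CPM in FH and 783 CPM in Hep 3 h, and Spry4 stayed at or below 9.15 CPM in every library.

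The 3 phosphatase genes were already higher 3 h after plating. Dusp5 encodes a nuclear phosphatase specific for ERK. It was at 6.53, 1.30 and 8.98 CPM in the FH libraries and at 713, 853 and 782 CPM in the Hep 3 h libraries, so that the groups were far apart (edgeR FDR 5.93e-09). Its mean was 615 ± 100.1 CPM (SD, n = 3) at 1 day, 397 ± 118 at 2 days, 268 ± 24.6 at 4 days, 282 ± 147 at 7 days and 442 ± 52.5 at 14 days. Every cultured library of the time course lay above every FH library, and log2 fold changes against FH were between 5.37 at 4 days and 6.54 at 1 day after the 3 h point. The Dusp5 gene is at chr19:53529109-53542431 on the plus strand of GRCm38 (ENSMUSG00000034765). The 250 bases before the RefSeq start site were searched in 7 of the 10 genes, on both strands, for TGANTCA (the AP-1 motif), TGACGTCA (the cAMP response element), TGACG (part of that element), CCGGAA (a core of ETS factor sites) and the CArG box, the serum response factor motif in which 6 A or T letters stand between CC and GG. Among 32851 promoters of that length 1.47% held a CArG box, and Dusp5 was the 1 gene of the 7 with a match, which was 2 boxes side by side. The stretch of Dusp5 from 102 to 43 bases before the RefSeq start is chr19:53529043-53529102 on the plus strand of GRCm38.p6. That start lies inside the gene coordinates given above and differs from their first base. The stretch is shown because it holds that match, with the 2 CArG boxes in capitals.
Dusp5: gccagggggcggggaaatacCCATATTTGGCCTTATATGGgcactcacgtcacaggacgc
Dusp5 also held TGACG, in reverse, at 55 to 51 bases before the start, a motif found in 17.8% of promoters. The AP-1 motif, the cAMP response element and the ETS core, found in 6.75%, 1.55% and 12% of promoters, had no match in the 7. These are matches of letters and were not measured as binding sites.

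Dusp6 encodes the cytoplasmic ERK phosphatase. It was already present in FH, at 252, 56.1 and 94.7 CPM, and reached 878, 999 and 1001 CPM at 3 h (log2 fold change 2.84 ± 0.56 SE, FDR 0.00259). It did not stay there. At 1 day the libraries held 76.1, 180.5 and 65.2 CPM, all below those at 3 h (log2 fold change −3.34 ± 0.57, FDR 7.80e-05) and within the range of FH. From 2 to 14 days the means lay between 143 and 398 CPM and none was called against FH. The FH libraries were spread widely in Dusp6. Without FH replicate 1 the log2 fold change was 3.68 at 3 h, and the gene was called at 7 days, at 2.27. Dusp4, a nuclear phosphatase of ERK and other kinases, was also highest at 3 h, at a lower level. It was at 2.18, 2.61 and 1.99 CPM in FH, 37.1, 30.5 and 36.4 CPM at 3 h, and 6.45, 3.05 and 3.54 CPM at 1 day. It rose at 3 h (3.92 ± 0.53, FDR 5.47e-05), fell from 3 h to 1 day (−3.14 ± 0.44, FDR 9.15e-06), and was called higher than FH again at 4, 7 and 14 days, with log2 fold changes of 2.67, 2.79 and 2.44.

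**Figure D2:**
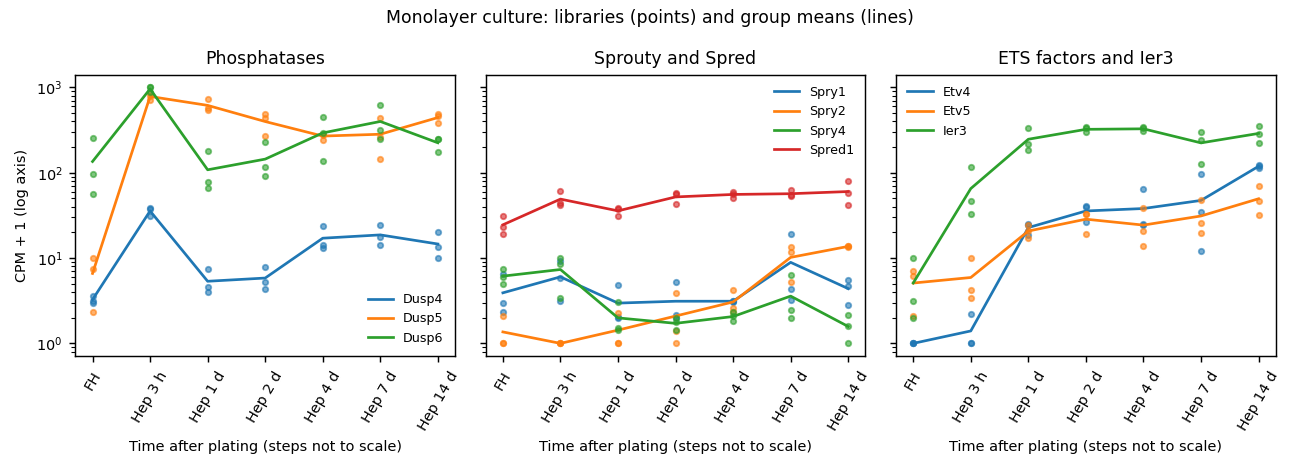
CPM plus 1 on a log axis in FH and at 6 times of monolayer culture, with points for libraries and lines through group means, in panels for the phosphatase genes, the Sprouty and Spred genes, and the ETS factor genes with Ier3. Dusp4 and Dusp6 peaked at 3 h, with means of 34.7 and 960 CPM, while Etv4 had 1 count at 3 h and its highest mean, 118 CPM, at 14 days.

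Of the Sprouty and Spred genes, none that was tested was called against FH before 7 days. Spry2 had 1 count in FH and none at 3 h. Its libraries held 10.8, 12.4 and 4.29 CPM at 7 days and 12.8, 12.7 and 12.6 CPM at 14 days, and it was called higher than FH at both times (FDR 0.00797 and 0.00286). With 1 count in FH, the ratio at 14 days was 34.2 with a 95% counting interval of 5.93 to 1372. Spred1, which binds Ras-GAP neurofibromin, was the steadiest of the 10, with condition means from 23.5 CPM in FH to 83.3 CPM in dediHep. At 3 h it was at 40.7, 43.7 and 59.9 CPM, above every FH library (1.04 ± 0.31, FDR 0.0328). Its log2 fold changes against FH ran from 0.39 at 1 day to 1.19 at 14 days, under the fold threshold at every time. Spry1 had means of 1.97 to 7.91 CPM over the time course and did not pass the filter on low counts there. Spry4 did not pass it in any comparison. Spry4 was at 6.53, 3.91 and 4.99 CPM in FH, at 2.39, 9.15 and 7.49 CPM at 3 h and at 0.430, 2.03 and 0.505 CPM at 1 day,, so that its higher levels were in FH and at 3 h. Tested without the filter, it was called lower than FH at 1, 2, 4 and 14 days, with log2 fold changes of −2.41, −2.81, −2.25 and −2.82 on 4 to 7 counts per cultured group, and lower at 1 day than at 3 h (−2.74, FDR 0.0135).

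Neither ETS factor gene was called at 3 h, and both were called against FH from 1 day. Etv4 had no count in FH and 1 count in the 3 libraries at 3 h. At 1 day it was at 17.6, 23.4 and 24.3 CPM, which is at least 19.3-fold higher than FH when FH is set at 3 counts over the group. The bound was 106-fold at 14 days, where the libraries held 123, 112 and 119 CPM. The change from 3 h to 1 day was itself called (FDR 0.000326). Between those times 7 days stood out for its spread, with 94.5, 11.0 and 33.7 CPM. Replicate 2 of Hep 7 d, with the lowest Etv4, also had the lowest Dusp5 (145 CPM) and Ier3 (125 CPM) and the highest Dusp6 (624 CPM), Spry1 (18.2 CPM) and Spry4 (5.26 CPM) of its group. Etv5 had 1.09, 5.22 and 5.98 CPM in FH and 2.39, 9.15 and 3.21 CPM at 3 h, and the groups overlapped. It was at 23.2, 16.3 and 19.7 CPM at 1 day (log2 fold change against FH 2.09 ± 0.59, FDR 0.00832), and at 46.2, 68.6 and 30.9 CPM at 14 days (3.41 ± 0.58, FDR 4.47e-05). Its change from 3 h to 1 day was 1.79 ± 0.56 (FDR 0.0136), under the fold threshold. The calls of Etv5 at 1 and 4 days rested on single libraries: without FH replicate 1 the log2 fold changes were 1.65 and 1.92, without Hep 1 d replicate 1 the first was 1.97, and without Hep 4 d replicate 1 the second was 1.87.

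Ier3 rose at 3 h and went on rising. It was at 2.18, 9.13 and 0.997 CPM in FH, at 115, 45.7 and 32.1 CPM at 3 h (log2 fold change 4.04 ± 0.59, FDR 0.000129), and at 186, 218 and 334 CPM at 1 day (5.81 ± 0.59, FDR 1.34e-07). From 3 h to 1 day the groups did not overlap and the log2 fold change was 1.78 ± 0.44, under the fold threshold. Without Hep 3 h replicate 1, the highest of its group, that change was called, at 2.48. From 2 to 14 days the means were between 223 and 326 CPM. Without FH replicate 2, the highest of FH, the log2 fold change was 5.30 at 3 h and 7.09 at 1 day.

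Counted over the genes, 4 of the 8 tested were called higher at 3 h (Dusp4, Dusp5, Dusp6 and Ier3) and none lower, where 3.06% of 12443 genes were called higher and 3.85% lower. At 1 day 4 were called higher (Dusp5, Etv4, Etv5 and Ier3), with 6.57% of all genes called higher and 10.9% lower. The same 4 were called higher at 2 days, where 9.21% of genes were higher and 12.1% lower. Dusp4 joined them at 4 days (5 genes; 11.4% and 12.4% of all genes), and Dusp4 and Spry2 at 7 days (6 genes; 13.2% and 12.8%) and at 14 days (6 genes; 14.1% and 15.3%). The 6 comparisons share the FH libraries. Dusp4, Dusp5, Spry2, Etv4, Etv5 and Ier3 had fewer than 10 counts in every FH library and passed the filter through cultured libraries. That favors calls of higher against FH. Spry4, called lower at 1, 2, 4 and 14 days when tested without the filter, is not among the 8. Over the 6 of these genes with more than 3 counts in both groups, which leaves out Spry2 and Etv4, the median log2 fold change was 3.38 at 3 h and 2.93 at 14 days, against −0.0718 and 0.0371 for all genes tested. From 3 h to 1 day 3 of the 8 were called (Dusp4 and Dusp6 lower, Etv4 higher), where 24.2% of all genes were called in either direction. The count was 5 without Hep 3 h replicate 1, and Etv5 was called higher, at 2.61, without Hep 3 h replicate 2.

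Other genes of the pathway were taken from lists chosen by role, with earlier results known. Of 14 other ERK target genes, 9 rose at 3 h, where 3.06% of all genes were called higher: Egr1, Fosl1, Myc, Maff, Phlda1, Epha2, Plaur, Hbegf and Areg. Egr1, an immediate-early transcription factor gene, went from 205 ± 55.9 to 989 ± 245 CPM. From 3 h to 1 day 7 of the 14 fell, namely Egr1, Fos, Myc, Maff, Phlda1, Epha2 and Areg, and Hbegf, which encodes an EGF receptor ligand, rose, so that 8 were called beside 24.2% of all genes. Of 14 other feedback genes 10 were tested, and Dusp1, Dusp8 and Dusp10 were called higher at 3 h, with log2 fold changes of 2.02, 3.24 and 3.05. Of 23 genes of the cascade itself, from receptors to ERK, 1 was called at 3 h (Ksr1, a scaffold gene, lower) and 4 at 14 days (Erbb2 higher, and Erbb3, Fgfr2 and Fgfr3 lower), where 14.1% of all genes were called higher and 15.3% lower.

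In dediHep, 6 of the 8 genes tested were higher than in FH and none was lower: Dusp4, Dusp5, Spry1, Spry2, Etv4 and Ier3. Of 11276 genes tested, 13.1% were called higher and 12.6% lower. The 6 genes had fewer than 10 counts in every FH library and passed the filter through their dediHep libraries, which favors calls in this direction. Spry4, with a mean of 2.34 CPM in dediHep and 5.14 CPM in FH, did not pass the filter. Tested without it, Spry4 was not called (log2 fold change −1.23, edgeR FDR 0.262). Dusp5 was at 529, 620, 346, 686 and 593 CPM in the 5 dediHep libraries, and Ier3 at 409, 447, 229, 565 and 310.1 CPM, both far above FH (log2 fold changes 6.35 ± 0.57 and 6.43 ± 0.68, FDR 8.88e-06 and 2.82e-05). Etv4 was detected in all 5 libraries, from 3.29 to 44.4 CPM, at least 20.9-fold higher than FH. Spry2 was at 6.11 to 17.3 CPM, with a ratio to FH of 28.6 and a counting interval of 5.04 to 1139. Dusp4 ranged from 10.2 to 41.9 CPM (3.09 ± 0.67, FDR 0.00389). Dusp6 ranged from 191 to 657 CPM and overlapped FH (1.28 ± 0.57, FDR 0.103), and without FH replicate 1 it was called, at 2.16. The Sprouty gene Spry1 was at 104, 18.8, 13.3, 11.8 and 16.4 CPM, against 5.44, 1.30 and 1.99 CPM in FH (3.27 ± 1.03, FDR 0.0269). Replicate 1 stood far above the other 4, which also lay above FH, and without it the log2 fold change was 2.08. Without FH replicate 2 the FDR of Spry1 was 0.101, and DESeq2 gave no adjusted p for Spry1 in any comparison with dediHep. Etv5 did not pass the filter in this comparison. It was at 2.19 to 5.25 CPM in 4 libraries and at 32.2 CPM in replicate 4.

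**Figure D3:**
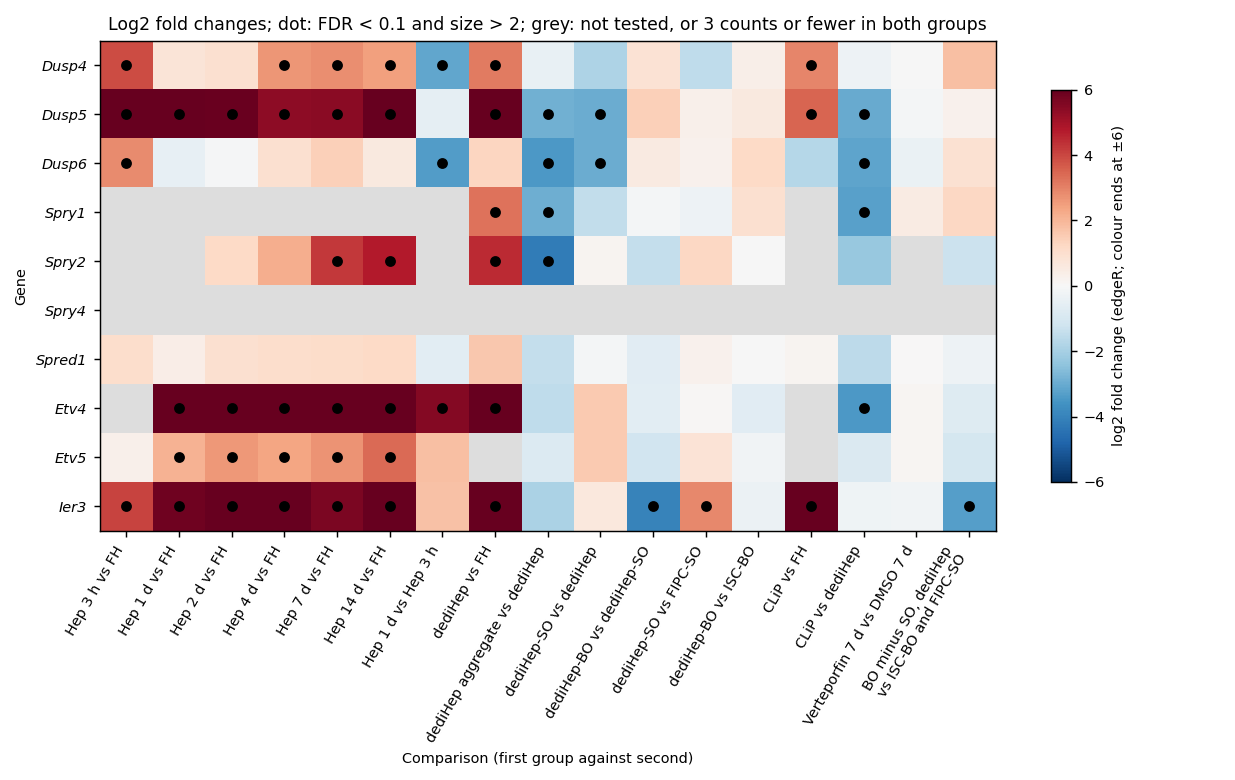
Fitted log2 fold changes of the 10 genes (rows) in 17 comparisons (columns), from blue (lower in the first group) to red (higher), with the color ending at 6 in size. Black dots mark calls at FDR under 0.1 and size above 2, and grey marks genes not tested or with 3 counts or fewer in both groups. The dots lie on red against FH. From 3 h to 1 day they lie on blue for Dusp4 and Dusp6 and on red for Etv4, and they lie on blue for aggregates, spherical organoids and CLiPs against dediHep.

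Several of these transcripts were lower in aggregates, which differ from dediHep in medium as well as in form. These cannot be told apart. Aggregates are the condition in which dediHeps are brought back toward hepatocytes, and their 6 hepatocyte markers summed to 5951 to 9356 CPM, with Cyp2e1 at 0. Of 9 genes tested, 4 were called lower than in dediHep (Dusp5, Dusp6, Spry1 and Spry2) and none higher, with 5.11% of 11265 genes called lower and 4.39% higher. Spry2, with 1 count in each aggregate library, passed the filter through its dediHep libraries, which favors a call of lower. Spry1, with 8, 14 and 1 counts in aggregates, passed it largely through dediHep as well. All 9 had log2 fold changes below 0, with a median of −1.92, or −1.71 over the 8 with more than 3 counts in both groups, against −0.0659 for all genes. Dusp6 was at 27.1, 37.8 and 35.4 CPM in aggregates, below the lowest dediHep library at 191 CPM (−3.47 ± 0.46, FDR 0.00125). Spry2 had 3 counts in the 3 aggregate libraries against 123 in dediHep, a ratio of 19.7 with a counting interval of 6.57 to 96.6 (FDR 0.00341). Dusp5 was at 61.9, 101.7 and 54.4 CPM (FDR 0.000652), which was still above every FH library. Ier3 was at 42.5, 155 and 106 CPM, below every dediHep library, with a log2 fold change of −1.92 ± 0.43, under the fold threshold. Aggregate and dediHep libraries carry shared culture names in the labels, and with the culture as a block Ier3 was called, at −2.34, which made 5 genes lower. It was also called without aggregate replicate 2 or dediHep replicate 3, at −2.35 and −2.07. Spry1 was at 6.19, 6.08 and 0.513 CPM (−2.92 ± 0.99, FDR 0.0705). Its call rested on single libraries: without dediHep replicate 1 the log2 fold change was −1.78, and without aggregate replicate 1, 2 or 3 the FDR was 0.155, 0.15 and 0.21. Dusp4, Etv4 and Etv5 overlapped dediHep, and Etv4 had no count in aggregate replicate 1. Of the 14 other ERK target genes, 8 fell in aggregates (Egr1, Fos, Myc, Phlda1, Ccnd1, Epha2, Epha4 and Hbegf) and all 14 had log2 fold changes below 0, while 1 of 22 cascade genes, Nras, was called lower.

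In spherical organoids Dusp5 and Dusp6 fell relative to dediHep. Dusp5 was at 63.3, 62.7 and 79.6 CPM (−2.99 ± 0.31, FDR 0.00017) and Dusp6 at 29.6, 29.1 and 84.6 CPM (−2.98 ± 0.55, FDR 0.00559), each below every dediHep library. Without dediHep-SO replicate 3 the value of Dusp6 was −3.68. Dusp4 was also below every dediHep library, at 5.99, 7.03 and 5.43 CPM (−1.86 ± 0.53, FDR 0.0459, under the fold threshold), and it was called without dediHep replicate 3, at −2.05. The other genes overlapped dediHep, and 4 of the 9 tested had log2 fold changes above 0. Etv4 was at 84.1, 71.3 and 43.9 CPM (1.59 ± 0.57, FDR 0.104), and Etv5 at 26.8, 34.1 and 20.4 CPM (1.57 ± 0.75, FDR 0.221). With the culture named in the labels as a block, Etv5 was called higher, at 2.89 (FDR 0.019). Without dediHep replicate 4 it was called at 2.88. Ier3 was at 688, 762 and 324 CPM, its highest mean of all 16 conditions, with the range overlapping dediHep. In all, 2 of the 9 were called lower and none higher, where 4.65% of 11470 genes were lower and 4.12% higher. Aggregates, spherical organoids and CLiPs are compared with the same dediHep libraries. By the study's account their media differ from that of dediHep too, and medium cannot be told apart from cell form there.

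In budding organoids with Cdx2, Ier3 fell. It was at 38.5, 56.6 and 12.5 CPM in dediHep-BO against 688, 762 and 324 CPM in dediHep-SO (−4.03 ± 0.54, FDR 0.000579), with a wide gap between the groups. It was the 1 gene of 9 called, with 5.68% of 11301 genes called lower and 5.60% higher. Dusp5 moved the other way by less than the fold threshold, to 152, 209 and 197 CPM (1.44 ± 0.27, FDR 0.0037), and the groups did not overlap. Etv5 was at 11.0, 6.92 and 19.0 CPM, below every dediHep-SO library (−1.14 ± 0.41, FDR 0.0594). Etv4 was at 34.5, 19.4 and 75.0 CPM and overlapped. Summed levels of 6 stellate cell and fibroblast markers ran from 2.16 to 286 CPM in dediHep-BO and from 0 to 0.945 CPM in dediHep-SO, where Col1a2, Col3a1, Pdgfrb and Dcn were at 0, and in dediHep-BO Des was at 0. Their part in these differences was not tested. DediHep-BO also differ from dediHep-SO in the added Cdx2 and in the later withdrawal of Wnt3a and the Wnt agonist from the medium. These cannot be told apart from organoid shape.

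The organoids of intestinal origin gave the reference. Against FIPC-SO, dediHep-SO had 1 gene of 9 called higher, Ier3, and none lower, where 4.92% of 11608 genes were higher and 3.99% lower. Ier3 was at 91.2, 40.5 and 103 CPM in FIPC-SO, all below dediHep-SO (2.89 ± 0.44, FDR 0.00199). Etv4 was at 98.9, 42.3 and 47.5 CPM in FIPC-SO and overlapped dediHep-SO (0.06 ± 0.40). Dusp4 was lower in dediHep-SO than in every FIPC-SO library (−1.50 ± 0.51, FDR 0.0753, under the fold threshold). Against ISC-BO, dediHep-BO had none of 9 called by edgeR, and DESeq2 called none, while 2 genes, Dusp6 and Spry1, had an unadjusted p under 0.05. Background shares there were 1.34% higher and 1.71% lower of 11303 genes. Dusp6 was at 79.6, 76.1 and 55.2 CPM in dediHep-BO and at 37.7, 11.4, 37.4 and 40.1 CPM in ISC-BO (1.21 ± 0.38, FDR 0.0903). Ier3 was at 43.3, 48.6, 76.6 and 24.2 CPM in ISC-BO, and dediHep-BO overlapped it (−0.37 ± 0.49). The difference between budding and spherical organoids was then tested between the origins. For Ier3 the change in dediHep organoids was lower than that from FIPC-SO to ISC-BO by 3.29 ± 0.73 on the log2 scale (FDR 0.0119), and it was the 1 gene of 9 called, with 4.08% of 12379 genes lower and 5.37% higher. Dusp4 was called higher in that contrast without dediHep-BO replicate 1 or FIPC-SO replicate 2, at 2.2 and 2.21. Stellate cell and fibroblast markers summed to 5.06 to 473 CPM in FIPC-SO, and their part was not tested. Fetal and adult intestine differ in age as well as in organoid shape, and these cannot be told apart in that contrast. By the study's account the media differ too, with Wnt3a and a Wnt agonist for spherical organoids and without them for crypts. Cdx2 was added in dediHep-BO only. Medium and added Cdx2 cannot be told apart from organoid shape here.

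**Figure D4:**
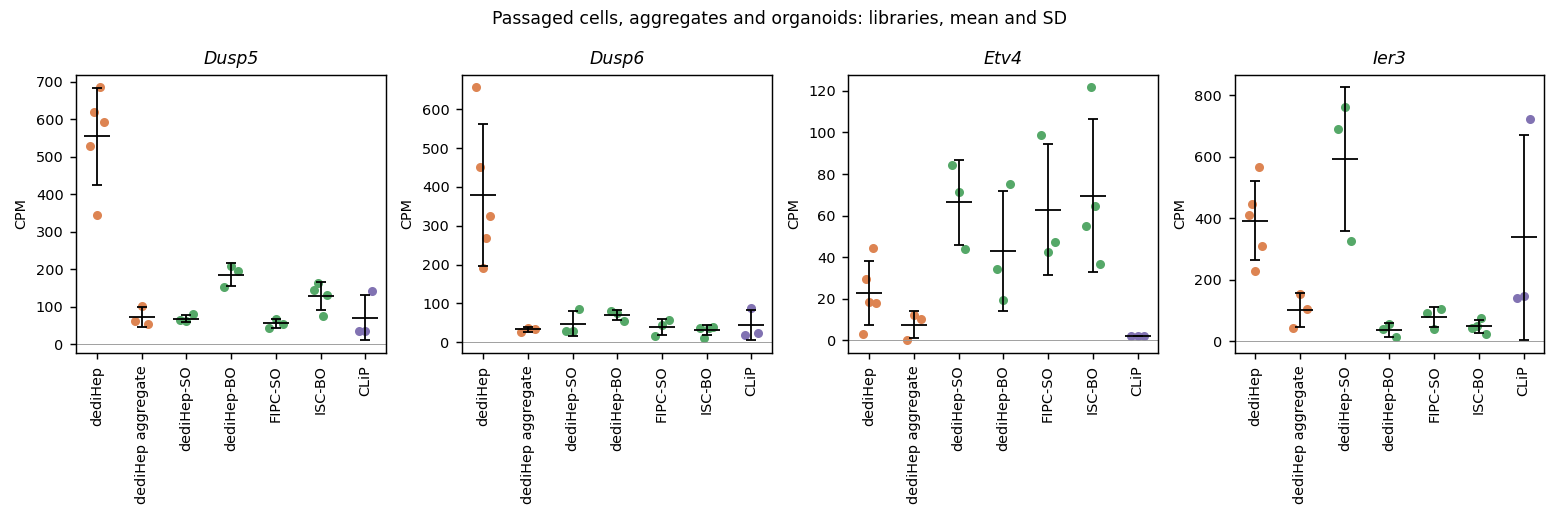
CPM of Dusp5, Dusp6, Etv4 and Ier3 on linear axes in dediHep, aggregates, organoids and CLiPs, with points for libraries, a horizontal mark at the mean and bars for the SD. Dusp5 and Dusp6 were highest in dediHep (means 555 and 379 CPM), and Ier3 was at 592 ± 234 CPM in dediHep-SO against 35.9 ± 22.2 CPM in dediHep-BO.

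CLiPs held part of the pattern of dediHep. Against FH, 3 of the 5 genes tested were called higher and none lower, where 13.1% of 10445 genes were higher and 11.4% lower. The called genes, Dusp4, Dusp5 and Ier3, had fewer than 10 counts in every FH library. They passed the filter through their CLiP libraries, which favors calls in this direction. Dusp4 was at 12.8, 16.8 and 27.3 CPM (2.94 ± 0.57, FDR 0.00501), Dusp5 at 35.9, 36.2 and 141 CPM (3.49 ± 0.80, FDR 0.0105) and Ier3 at 141, 147 and 723 CPM (6.29 ± 1.02, FDR 0.00213). Replicate 3 was the highest of the CLiP libraries in all 3 genes, and without it the log2 fold changes were 2.54 for Dusp4, 2.48 for Dusp5 and 5.04 for Ier3, all still called. Without CLiP replicate 2, Dusp6 was called lower than FH, at −2.78. Without the filter on low counts, Etv4, with 18 counts against none in FH (at least 1.90-fold higher), was also called higher and Spry4 lower. Against dediHep, 4 of 9 genes were called lower and none higher, where 1.39% of 11567 genes were lower and 1.65% higher. These were Dusp5 (−3.00 ± 0.54, FDR 0.0204), Dusp6 (−3.16 ± 0.64, FDR 0.0345), Spry1 (−3.27 ± 0.91, FDR 0.0985) and Etv4 (−3.44 ± 0.75, FDR 0.0451). Etv4 was at 2.05, 2.24 and 1.95 CPM, below every dediHep library, and Dusp6 at 19.0, 89.0 and 24.4 CPM, also below every dediHep library. Spry1 and Etv4 had fewer than 10 counts in CLiP replicates 1 and 3 and passed the filter mainly through dediHep, which favors calls of lower. The calls depended on single libraries. Without CLiP replicate 1 none of the 4 was called, with FDR from 0.110 for Dusp5 to 0.318 for Spry1, and without CLiP replicate 3 or dediHep replicate 2 only Dusp5 and Dusp6 were called. Spry1 was also lost without CLiP replicate 2 or dediHep replicate 3 or 5, with FDR of 0.125, 0.109 and 0.121. Spry2 was called lower without dediHep replicate 4, at −2.42, and by DESeq2, at −2.27. Dusp5 was at −3.98 without CLiP replicate 3, Dusp6 at −4.17 without CLiP replicate 2, and Spry1 at −2.09 without dediHep replicate 1. All 9 genes had log2 fold changes below 0 in the fit of all libraries. Ier3 overlapped dediHep (−0.26 ± 0.55). Summed levels of 5 macrophage markers were 70.7 to 149 CPM in CLiP, where Adgre1, Clec4f and Cd5l were at 0, against 0.965 to 10.5 CPM in dediHep, where Adgre1 and Cd5l were at 0, and their part in these differences was not tested.

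With verteporfin no gene of the 8 tested was called against the vehicle control. The count was 0 in edgeR and in DESeq2, where 0.240% of 10400 genes were called higher and 0.0288% lower, and none of the 8 had an unadjusted p under 0.05. Dusp5 was at 232 and 268 CPM with verteporfin and at 226 and 320.0 CPM with DMSO (log2 fold change −0.13 ± 0.24). Ier3 was at 198 and 167 CPM against 219.6 and 206 CPM (−0.22 ± 0.24). Etv4 was at 20.5 and 19.3 CPM against 24.0 and 12.2 CPM (0.14 ± 0.40). Spry2, which did not pass the filter, was at 3.85 and 3.11 CPM against 7.57 and 6.12 CPM.

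Ordered by condition mean CPM with TMM factors, Dusp4, Dusp5, Dusp6 and Spry4 had their highest level in Hep 3 h, Spry2, Etv4 and Etv5 in Hep 14 d, Spry1 and Spred1 in dediHep, and Ier3 in dediHep-SO. Dusp6 in Hep 3 h lay above the next condition, DMSO 7 d, without overlap, while the highest condition of each of the other 9 genes overlapped the next. Part of this order turned without TMM factors. Dusp4 was then highest in dediHep (24.2 CPM, against 22.3 in Hep 3 h), Dusp5 in dediHep (591 CPM, against 586 in Hep 1 d and 503 in Hep 3 h) and Spry2 in dediHep-SO (13.7 CPM, against 12.7 in Hep 14 d). Dusp6 in Hep 3 h, at 562 to 646 CPM, then overlapped DMSO 7 d, which reached 642 CPM. Of the 10 genes, 6, namely Dusp4, Dusp5, Spred1, Etv4, Etv5 and Ier3, had their lowest mean in FH. FH is the only condition without culture, and the share of all genes with their lowest mean there was not counted. The spread over conditions was 140-fold for Dusp5 and 144-fold for Ier3, from FH to the highest mean, and 3.54-fold for Spred1. Across the 16 condition means, many of which share a cell origin, Pearson's r of log2 CPM between the genes ran from −0.74 for Spry4 and Etv4 to 0.854 for Etv4 and Etv5, with a median of 0.255 over 45 pairs and 13 pairs above 0.5. The gene most like each of the 10 among 11688 genes with a mean of at least 5 CPM was Gm43668 for Dusp4 (r = 0.854), Krt8 for Dusp5 (0.894), Rusc2 for Dusp6 (0.914), Llgl2 for Spry1 (0.844), Hap1 for Spry2 (0.918), Brap for Spry4 (0.949), Cd276 for Spred1 (0.841), Gm5921 for Etv4 (0.949), Hmga1b for Etv5 (0.92) and Hbegf for Ier3 (0.916). These are the highest of many correlations over 16 points and are given as a description.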

How the data were processed

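Total RNA was read by CEL-seq2, a 3' end method that counts molecules by unique molecular identifiers (UMIs). The deposited values are whole UMI counts per Ensembl gene, not normalized, which the authors made from their reads. The submitters' processing notes name bcl2fastq 2.20, Bowtie2 2.3.1, HTSeq 0.6.0 and GRCm38, without saying which step each served. Groups were taken from the sample labels, and 0 columns were left without a sample.

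The 10 genes were matched by symbol to GENCODE M21 identifiers. Members, gene lists, motifs and tests were chosen with earlier results of these data known. Genes named beside the 10 were the 1 gene most like each over the 16 conditions, among genes with a mean of at least 5 CPM, and the members of the lists that were called.

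Counts were tested with edgeR 4.0.16 in R 4.3.3: filterByExpr (minimum count 10, minimum total 15), TMM factors, and the quasi-likelihood F-test with Benjamini-Hochberg adjustment over all genes of a fit. The 7 groups of the time course shared 1 fit, the 4 organoid groups shared the fit of the interaction, and other comparisons held their own groups. The SE was the log2 fold change divided by the square root of F. Correlations used log2 CPM with a prior count of 2. The steps were tested on simulated data.

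None of the libraries was merged, since the 54 pairs of replicates had chi-square values per degree of freedom of 5.62 to 68.0 and 0 pairs were identical. Deviations of libraries with the same culture name correlated between aggregates and dediHep (r = 0.183 to 0.339 over 3 pairs). The same names tie dediHep-SO to dediHep, with r = −0.481 to 0.0268. The names come from the labels. Other comparisons share only replicate numbers, which are those of the sample titles. The numbers in the column headers of Hep 3 h are offset from those of FH. Pairs and blocks by header numbers were not tested.

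Alternatives were RLE factors, DESeq2 1.42.0, no filter, all 49 libraries in 1 fit, a block, each library left out in turn, and, added after seeing the data, counts restored for UMI collisions. Promoter sequences are from RefSeq, and 7 of the 10 genes were matched in the table used here.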

Additional observations from a re-analysis of the deposited data

Results flagged for a closer look

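In groups of 4 or 5 libraries, a library was singled out when its gap to the nearest other library, divided by the range of the group, passed Dixon's 95% critical value. Chance singles out about 1 in 20 groups of values, and 5 of 20 were singled out, although the genes of a library are not independent of each other. Spry1 in dediHep replicate 1 was at 104 CPM, with the next library at 18.8 CPM. Etv5 in dediHep replicate 4 was at 32.2 CPM, with the next at 5.25 CPM. Spred1 in dediHep replicate 3 was at 37.0 CPM, below the next at 85.8 CPM. Dusp6 in ISC-BO replicate 2 was at 11.4 CPM, below the next at 37.4 CPM. Spry4 in ISC-BO replicate 4 was at 0.456 CPM, which is 1 count, while the other 3 libraries had none.

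Ier3 was also singled out because its change differed between origins. The change from spherical to budding organoids was lower in dediHep organoids than between the fetal and adult intestinal organoids, with a difference of −3.29 ± 0.73 on the log2 scale (edgeR FDR 0.0119).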

How the results depend on the processing

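Over 54 calls of single genes and 1164 repeats of them under other settings, 1140 stayed called, 24 were lost and 0 turned in direction. Many of these repeats left out a time-course library of neither group compared. Such a library can move a call only through the shared fit, so that the share kept overstates how stable the calls are. Of 160 condition means, 21 moved by more than 1 SD without TMM factors. The number of the 10 genes called for CLiP against FH was 5 with no filter on low counts. Leaving out 1 library each gave 3 to 5 calls for Hep 1 d against Hep 3 h, 0 to 5 for CLiP against dediHep (0 without CLiP replicate 1) and 1 to 2 for the interaction.

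With the replicate block the count for CLiP against dediHep was 2, since Spry1 and Etv4 were lost (FDR 0.107 and 0.153). These libraries share only a number. RLE factors, and counts restored for UMI collisions, a setting chosen after seeing the data, also ended the call of Spry1 there (both FDR 0.101), and the fit of all 49 libraries called Spry2, at −2.26. Restored counts made Ier3 called in aggregates, at −2.05. The block changed no other call beyond those of Ier3 in aggregates and Etv5 in dediHep-SO.

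Signs turned for genes that were not called. Dusp6 at 2 days against FH was 0.00486 with no filter and 0.0354 with restored counts, which also gave 0.000999 for Spred1 in dediHep-BO against ISC-BO. With the block, dediHep-SO against dediHep gave −0.181 for Spry2 and 0.0718 for Spred1, dediHep-BO against dediHep-SO gave 0.0223 for Spry1, and CLiP against dediHep gave 0.0914 for Dusp4 and 0.425 for Etv5. Leaving out 1 library each, log2 fold changes at 3 h against FH ran from −3.42 to 0 for Spry2, 0 to 3.38 for Etv4 and −0.506 to 0.722 for Etv5. At 1 day they ran from −1.10 to 0.357 for Dusp6 and −2.77 to 2.98 for Spry2, and at 2 days from −0.555 to 0.782 for Dusp6 and −0.835 to 4.02 for Spry2. From 3 h to 1 day Spry2 ran from 0 to 3.43. In dediHep-SO against dediHep Spry2 ran from −0.169 to 0.504, and in dediHep-BO against dediHep-SO Spry1 ran from −0.427 to 0.598. In dediHep-SO against FIPC-SO the ranges were −0.441 to 0.636 for Dusp6, −0.962 to 0.0376 for Spry1 and −0.152 to 0.554 for Etv4. In dediHep-BO against ISC-BO they were −0.333 to 0.204 for Spry2, −0.0505 to 0.0684 for Spred1, −0.672 to 0.0716 for Etv5 and −0.891 to 0.0413 for Ier3. CLiP gave −0.201 to 0.477 for Spred1 against FH, and −0.665 to 0.00744 for Dusp4 and −1.48 to 0.102 for Ier3 against dediHep. Verteporfin against DMSO gave −0.213 to 0.229 for Dusp4, −0.341 to 0.108 for Dusp5, −1.0 to 0.0537 for Dusp6, −0.252 to 0.413 for Spred1, −0.305 to 0.713 for Etv4 and −0.125 to 0.297 for Etv5.

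The number of all genes called moved by over 1.5 times in several settings. With no filter it went from 2901 to 4481 for dediHep against FH, 1071 to 1608 for aggregates, 1005 to 1652 for dediHep-SO against dediHep, 1275 to 2385 for dediHep-BO against dediHep-SO, 1034 to 2052 for dediHep-SO against FIPC-SO, 345 to 798 for dediHep-BO against ISC-BO, 2557 to 4103 for CLiP against FH, 352 to 714 for CLiP against dediHep, 28 to 90 for verteporfin and 1170 to 1758 for the interaction. In the fit of all 49 libraries it was 1805 for aggregates, 1678 for dediHep-SO against dediHep, 1953 for dediHep-BO against dediHep-SO, 1558 for dediHep-SO against FIPC-SO, 1169 for CLiP against dediHep and 0 for verteporfin. DESeq2 gave 537 for CLiP against dediHep, and the block gave 59 for verteporfin. Leaving out 1 library moved it from 860 to 1527 for Hep 3 h against FH (FH replicate 1). Without dediHep-SO replicate 3 it was 2108 for dediHep-BO against dediHep-SO, 1716 for dediHep-SO against FIPC-SO and 2157 for the interaction, which was at 749 without dediHep-SO replicate 1. For CLiP against dediHep it was 109 without CLiP replicate 1 and 224 without dediHep replicate 2. For verteporfin it was 106 without verteporfin replicate 2, and 63 and 43 without DMSO replicates 1 and 2. The causes were not tested.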
